A study of Homo sapiens with 6 samples.

Results

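The genes described here are DEFB1 and 9 further genes of epithelial mucosal defence (LCN2, SLPI, PI3, PIGR, WFDC2, LYZ, CAMP, REG4 and BPIFB1), taken by symbol from a table of 23569 genes. Of these 10 genes, 9 were measured and REG4 is not analysed here, and 6 of the 9 (DEFB1, LCN2, SLPI, PI3, LYZ and BPIFB1) had a mean expression of at least 0.1 FPKM and entered the comparison of 15353 genes. FPKM is the number of sequenced fragments of a gene scaled by gene length and library total. It allows for length and depth but not for differences in RNA composition between libraries. The study used bulk RNA-seq in TFK1, a human cell line from an extrahepatic bile duct carcinoma, with 3 libraries from negative control cells, called oeNC, and 3 from cells overexpressing STUB1, called oeSTUB1. Both groups carried a lentiviral pHAGE construct, were selected with puromycin into stable cells and received no further treatment. STUB1 is a ubiquitin ligase that also binds chaperones. The comparison asks which transcripts differ when STUB1 is raised. Each group stands for 1 stable cell population, so differences between populations and the effect of STUB1 cannot be told apart, and nothing in the labels says that the 3 libraries came from separate cultures, so p-values measure the spread between these libraries, which may be technical.

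Epithelia that face the outside, the bile ducts included, keep microbes off by secreting peptides and proteins. DEFB1 encodes beta-defensin 1, a small cationic peptide that many epithelia make without being stimulated, whereas LCN2, SAA1 and CCL20 belong to an inducible arm that NF-kB, C/EBP factors and cytokines such as IL-17 and IL-22 switch on. Other proteins of this barrier hold proteases in check (SLPI, PI3), carry antibodies to the surface (PIGR), cut bacterial cell walls (LYZ) or bind bacterial lipids (BPIFB1).

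The promoters below are those of LCN2, WFDC2 and CAMP. LCN2 is an inducible gene that was higher in oeSTUB1, and the transcripts of WFDC2 and CAMP were nearly missing. RefSeq promoters, from 250 bases before to 50 bases after the transcription start in GRCh38.p14, were matched for 6 of the 10 genes (LCN2, PIGR, WFDC2, CAMP, REG4 and BPIFB1). LCN2 lies at chr9:128149203-128149502 (+), WFDC2 at chr20:45469503-45469802 (+) and CAMP at chr3:48223245-48223544 (+). Capitals mark the match to an NF-kB motif in LCN2, and every CG in WFDC2 and in CAMP.
LCN2: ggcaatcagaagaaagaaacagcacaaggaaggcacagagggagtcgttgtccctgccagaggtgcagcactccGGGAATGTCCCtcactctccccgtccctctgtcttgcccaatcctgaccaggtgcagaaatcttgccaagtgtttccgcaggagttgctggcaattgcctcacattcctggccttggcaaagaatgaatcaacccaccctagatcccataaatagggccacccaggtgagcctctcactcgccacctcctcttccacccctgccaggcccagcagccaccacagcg
WFDC2: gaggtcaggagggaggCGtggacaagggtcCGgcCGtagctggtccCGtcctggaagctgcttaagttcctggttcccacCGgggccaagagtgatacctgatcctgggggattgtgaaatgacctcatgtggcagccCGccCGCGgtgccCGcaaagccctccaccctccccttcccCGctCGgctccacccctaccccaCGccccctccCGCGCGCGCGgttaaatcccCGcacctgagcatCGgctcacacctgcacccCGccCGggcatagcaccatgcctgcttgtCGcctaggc
CAMP: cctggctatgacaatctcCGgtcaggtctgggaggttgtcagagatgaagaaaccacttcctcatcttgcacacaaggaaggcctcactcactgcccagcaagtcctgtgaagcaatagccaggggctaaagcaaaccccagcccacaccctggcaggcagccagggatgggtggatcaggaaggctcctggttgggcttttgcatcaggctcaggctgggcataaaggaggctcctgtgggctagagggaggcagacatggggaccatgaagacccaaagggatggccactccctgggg

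The NF-kB motif was searched as GGGA, any 4 bases, then CC, on both strands. The LCN2 promoter held 2 matches that overlap on opposite strands, GGGAATGTCC on the + strand from position -176 and GGAATGTCCC on the - strand from position -175, counted from the transcription start, and 25.6% of 35116 promoters held at least 1 match. It also held 1 match to a C/EBP motif, searched as TTGNGNAA on both strands, at position -143, a motif found in 12.4% of promoters. Of the other 5 promoters, CAMP held 1 NF-kB match, and PIGR, WFDC2, REG4 and BPIFB1 held none. The WFDC2 promoter had 22 CG and that of CAMP 1, against a median of 14 over all promoters (quartiles 4 and 28), and LCN2 had 6. A match describes the letters only.

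Library depth lay between 33106564 and 36744521 fragments. STUB1 itself, at 32.9, 33.03 and 30.9 FPKM in oeNC and 61.4, 74.97 and 61.9 FPKM in oeSTUB1, was higher in oeSTUB1 by 1.03 ± 0.097 (log2, SE, n = 3 libraries per group), with an adjusted p of 0.00064 (limma with Benjamini-Hochberg adjustment over all genes, used for every adjusted p). Library oeSTUB1 2 stood apart from the other two of its group (chi-square per degree of freedom of 76.7 and 71.1, against 9.44 between oeSTUB1 1 and 3). Without it the genes called at an adjusted p under 0.05 went from 1012 lower and 1076 higher to 1845 and 2273, DEFB1 was lower by a log2 fold change of -4.73 and LCN2 was higher by 1.84. Of the 8 epithelial and biliary markers, CDH1, EPCAM, KRT8 and KRT18 were lower in oeSTUB1, KRT19 was higher and 3 did not pass. Over all genes tested, 6.59% were lower and 7.01% were higher. The summed level of the 8 markers was between 7420 and 7996 FPKM in oeNC and between 4724 and 6264 FPKM in oeSTUB1. Their part in the results for the defence genes was not tested. In bulk RNA, fewer cells with a transcript and less of it per cell cannot be told apart.

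Across the 6 compared genes DEFB1 was lower in oeSTUB1, LCN2 and PI3 were higher, and SLPI, LYZ and BPIFB1 overlapped between the groups. The genes were chosen by their FPKM values in this same contrast, so these values describe them and carry no test. By the calling rule (an adjusted p under 0.05) 1 of the 6 was lower and 2 were higher, beside 6.59% of all genes tested that were lower and 7.01% that were higher. The 2 groups did not overlap for 3 of the 6 genes and for 38.8% of all genes tested (17.3% lower and 21.5% higher). DEFB1 went from the most to the least abundant of the 3 leading transcripts (DEFB1, SLPI and LCN2), with 39.4% to 48.3% of the summed FPKM of the 9 measured genes in oeNC and 1.28% to 2.40% in oeSTUB1. LCN2 moved the other way, from 12.05% to 17.2% of the sum to 41.5% to 51.5%.

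**Figure D1:**
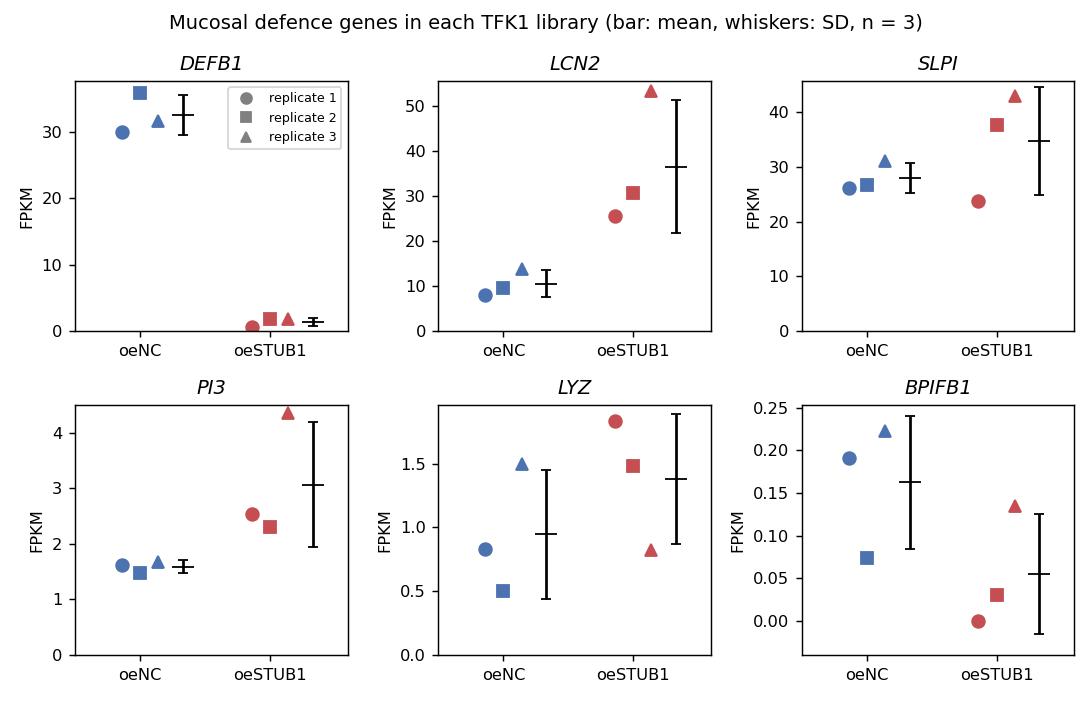
FPKM (y axis, linear) of DEFB1, LCN2, SLPI, PI3, LYZ and BPIFB1 in the 3 oeNC (blue) and 3 oeSTUB1 (red) libraries, with marker shape for the replicate number and a black bar with whiskers for the mean and SD of each group (n = 3). DEFB1 lies between 30.0 and 35.9 FPKM in oeNC and at no more than 1.79 FPKM in oeSTUB1, LCN2 is higher in every oeSTUB1 library, and SLPI, LYZ and BPIFB1 overlap.

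DEFB1 (chromosome 8, 6870575 to 6878022, minus strand, GENCODE 29 on GRCh38), the constitutive beta-defensin, was at 30.0, 35.9 and 31.6 FPKM in oeNC and at 0.697, 1.77 and 1.79 FPKM in oeSTUB1. Every oeSTUB1 library was far below every oeNC library, and the lowest oeNC value was 16.7 times the highest oeSTUB1 value. The fragments behind these values numbered 391, 467 and 436 in oeNC and 9, 22 and 23 in oeSTUB1, and the exact 95% Poisson interval for the 9 fragments of oeSTUB1 1, which covers counting error only, reached from 0.318 to 1.32 FPKM. The mean went from 32.5 ± 3.04 to 1.42 ± 0.628 FPKM (SD, n = 3), 22.9-fold lower, and the log2 fold change was -4.52 ± 0.31 (SE) on the log2(FPKM + 0.1) scale, which understates the change of low values. On this scale it was the lowest log2 fold change of all 15353 genes, which is what DEFB1 was chosen for, but by the plain ratio of means other genes fell further, among them ELAPOR2 (36.3-fold) and UGT1A9 (29.3-fold). In oeNC the mean of DEFB1 stood at the 93.0th percentile of all genes in the table and in oeSTUB1 at the 55.0th, so the transcript went from among the abundant ones to the middle of the range. In oeSTUB1, 9 to 23 fragments of DEFB1 per library remained, above the floor of 3 fragments. The paper reports RT-qPCR of its top downregulated genes, in which only PLA2G2A was significantly inhibited by STUB1 overexpression. Its RT-qPCR primers include those for DEFB1 and UGT1A9. If both genes were among those assayed, as the primers imply, their fall was not significant in RT-qPCR. The fall given here is that of the sequencing only.

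The nearest measured genes on either side of DEFB1 in gene order were DEFA1, which encodes a neutrophil alpha-defensin, and GS1-24F4.2. They had at most 1 and 8 fragments in any library and fell below the filter. The 511 genes tested on chromosome 8 had a median log2 fold change of -0.00, and the median over all genes tested was 0.02. The genes whose values over the 6 libraries lay closest to those of DEFB1, by the root mean square difference of log2 values centred on oeNC, were UGT1A9 (0.65), SYTL5 (0.85), ELAPOR2 (0.88), F5 (0.89) and BCHE (0.94), among genes with an oeNC mean of at least 1 FPKM. This measure takes in the size of the fall, and the order within oeSTUB1 can differ. UGT1A9 was lowest in oeSTUB1 3 (0.0494 FPKM), where DEFB1 was highest (1.79 FPKM). UGT1A9 shares exons with the other UGT1A genes, so how its reads were divided is uncertain. F5, which encodes coagulation factor V, went from 14.2 ± 0.573 to 1.15 ± 0.498 FPKM, and BCHE, which encodes butyrylcholinesterase, from 18.5 ± 1.31 to 1.596 ± 0.306 FPKM (SD, n = 3).

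Of 24 beta- and alpha-defensin genes listed beside DEFB1, 3 were measured (DEFB136, DEFA1 and DEFA3) and none passed the filter, with at most 4 fragments in a library. DEFB1 was the only defensin of those looked up that passed it.

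LCN2 (chromosome 9, 128149071 to 128153455, plus strand), whose product binds the siderophores with which bacteria collect iron, was at 8.08, 9.64 and 13.8 FPKM in oeNC and at 25.7, 30.7 and 53.3 FPKM in oeSTUB1. All oeSTUB1 libraries were above all oeNC libraries, the lowest by 1.85 times the highest oeNC value. The mean went from 10.5 ± 2.98 to 36.6 ± 14.7 FPKM (SD, n = 3), 3.47-fold higher, with a log2 fold change of 1.75 ± 0.29 (SE). The spread within groups was wide, and replicate 3 was the highest library of both. The numbers mark no shared culture in the labels. LCN2 ranked 121 from the top among the 15353 log2 fold changes. The 604 tested genes of chromosome 9 had a median log2 fold change of 0.16, above the 0.02 of all genes. The nearest measured genes on either side of LCN2 were PTGES2 and BBLN. The mean of PTGES2 went from 19.3 to 24.7 FPKM (log2 fold change 0.35 ± 0.10, SE, adjusted p = 0.065). That of BBLN went from 12.5 to 14.6 FPKM (0.21 ± 0.16, adjusted p = 0.42). The part of the chromosome in the LCN2 value was not tested.

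The whey acidic protein inhibitors SLPI and PI3 sit near each other on chromosome 20 and block neutrophil elastase. SLPI was at 26.2, 26.7 and 31.1 FPKM in oeNC and 23.8, 37.6 and 42.9 FPKM in oeSTUB1. The groups overlapped, because oeSTUB1 1 lay below all oeNC libraries while the others lay above them. The log2 fold change was 0.27 ± 0.20 (SE) with a 95% interval from -0.20 to 0.74. Without oeSTUB1 1 it was 0.52 and passed the calling rule, and without oeSTUB1 3 it was 0.10 and did not.

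PI3, which encodes elafin, was at 1.62, 1.47 and 1.68 FPKM in oeNC and at 2.53, 2.30 and 4.36 FPKM in oeSTUB1. The groups did not overlap, but oeSTUB1 3 was far above the other two, and the fragments were few, from 28 to 34 in oeNC and from 42 to 82 in oeSTUB1. Its mean was 1.93-fold higher, with a log2 fold change of 0.85 ± 0.23 (SE). The call was lost in 9 of 15 alternative settings, among them leaving out oeNC 1, oeNC 2, oeNC 3 or oeSTUB1 1, with log2 fold changes between 0.58 and 1.02 over the libraries left out. WFDC2, a further gene of this inhibitor family whose product is the tumour marker HE4, had 1 fragment in oeNC 1 and 0 in the other 5 libraries. A count of 0 allows up to 3.69 expected fragments (exact 95% Poisson interval, counting error only). Of 20 other inhibitor genes listed with SLPI, PI3 and WFDC2, 8 were measured and only CST3, the cystatin C gene, passed the filter. It was at 27.1, 26.3 and 28.3 FPKM in oeNC and 28.7, 44.2 and 33.1 FPKM in oeSTUB1 (log2 fold change 0.35 ± 0.15, SE, adjusted p = 0.16).

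LYZ, which encodes lysozyme, was at 0.832, 0.503 and 1.498 FPKM in oeNC and 1.83, 1.48 and 0.825 FPKM in oeSTUB1, from 26 to 94 fragments. The groups overlapped, with oeNC 3 above oeSTUB1 2 and 3. The log2 fold change was 0.55 ± 0.39 (SE), with a 95% interval from -0.35 to 1.45. LYZ is also a main product of neutrophils and macrophages. Of 11 tested neutrophil, leukocyte and macrophage markers, 5 (CSF3R, FCGR3B, PTPRC, ITGAM and TYROBP) were highest in oeNC 3 among the controls and in oeSTUB1 1 among the overexpressing libraries, the same libraries in which LYZ was highest. The order looked for was taken from LYZ, and the other tested markers did not follow it. The share of all genes with this order was not computed.

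The neutrophil list, of which 7 of 9 genes were measured, summed to between 2.79 and 4.41 FPKM in oeNC and between 4.68 and 5.29 FPKM in oeSTUB1. Of the 5 tested, 1 was higher and 4 did not pass, beside 7.01% higher over all genes tested. The higher one was FCGR3B, which cannot be told cleanly from its near-identical copy FCGR3A (log2 fold change 1.35 ± 0.31, SE, adjusted p = 0.027). PRTN3 (-0.16 ± 0.19, adjusted p = 0.62) and ELANE (-0.04 ± 0.43, adjusted p = 0.96) had slightly lower means in oeSTUB1, and CSF3R (0.68 ± 0.42, adjusted p = 0.33) and AZU1 (0.33 ± 0.17, adjusted p = 0.25) higher ones. CEACAM8 and CD177 had at most 2 fragments in a library, and MPO and CTSG are not analysed here. The 9 leukocyte and macrophage markers summed to between 32.7 and 35.2 FPKM in oeNC and between 26.5 and 26.8 FPKM in oeSTUB1, most of it CD68, a lysosomal gene that many cells express. PTPRC, the general leukocyte marker CD45, was at 0.0971, 0.0575 and 0.209 FPKM in oeNC and 0.280, 0.264 and 0.130 FPKM in oeSTUB1. The part of these transcripts in the LYZ values was not tested. Neutrophils store LCN2 beside CAMP and LTF, the lactoferrin gene, and those last 2 genes had at most 6 and 3 fragments in any library.

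**Figure D2:**
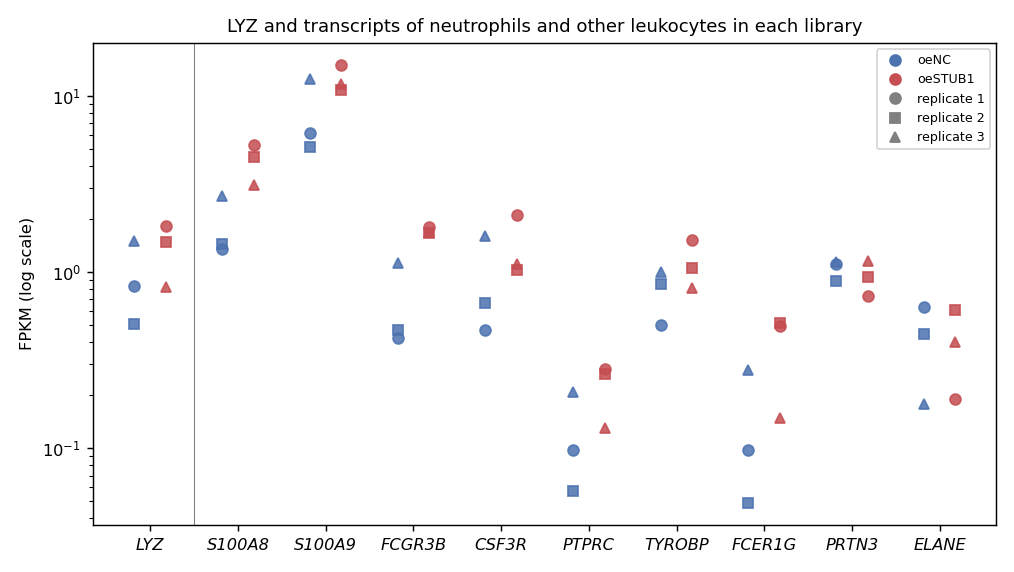
FPKM on a log axis of LYZ, S100A8, S100A9 and 7 markers of neutrophils and other leukocytes in each oeNC (blue) and oeSTUB1 (red) library, with marker shape for the replicate number. LYZ, S100A8, S100A9, FCGR3B, CSF3R, PTPRC and TYROBP are highest in oeNC 3 among the controls and in oeSTUB1 1 among the overexpressing libraries. FCER1G, PRTN3 and ELANE do not follow this order, which was taken from LYZ. Of the 11 tested markers, 5 follow it. Not shown are ITGAM, which does, and AZU1, CD14 and CD68, which do not.

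BPIFB1, a lipid-binding protein of airway and other mucosal secretions, was at 0.191, 0.0737 and 0.222 FPKM in oeNC and at 0, 0.0309 and 0.135 FPKM in oeSTUB1. Replicate 2 of oeNC fell inside the oeSTUB1 range, and the fragments were 13, 5 and 16 against 0, 2 and 9. The log2 fold change was -0.80 ± 0.40 (SE), with a 95% interval from -1.72 to 0.12, and it ran from -0.14 with a pseudocount of 1 to -2.18 with limma-voom, not called in either. CAMP, the only human cathelicidin, had 2, 0 and 6 fragments in oeNC and 1 in each oeSTUB1 library. PIGR, the receptor that carries IgA across epithelia, had 1, 0 and 3 fragments in oeNC and 2, 3 and 7 in oeSTUB1. At this depth no difference was detectable for CAMP, PIGR or WFDC2.

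Beyond these 10 genes, a list of 138 other secreted and epithelial defence genes was examined, of which 72 were measured and 28 passed the filter. The list was drawn up with earlier results of these data known, so its counts are a description and no test. Of the 28, 6 were lower in oeSTUB1, 4 were higher and 18 did not pass the test, so 35.7% were called, beside 13.6% of all genes tested. Their median log2 fold change was -0.00 and that of all genes 0.02.

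**Figure D3:**
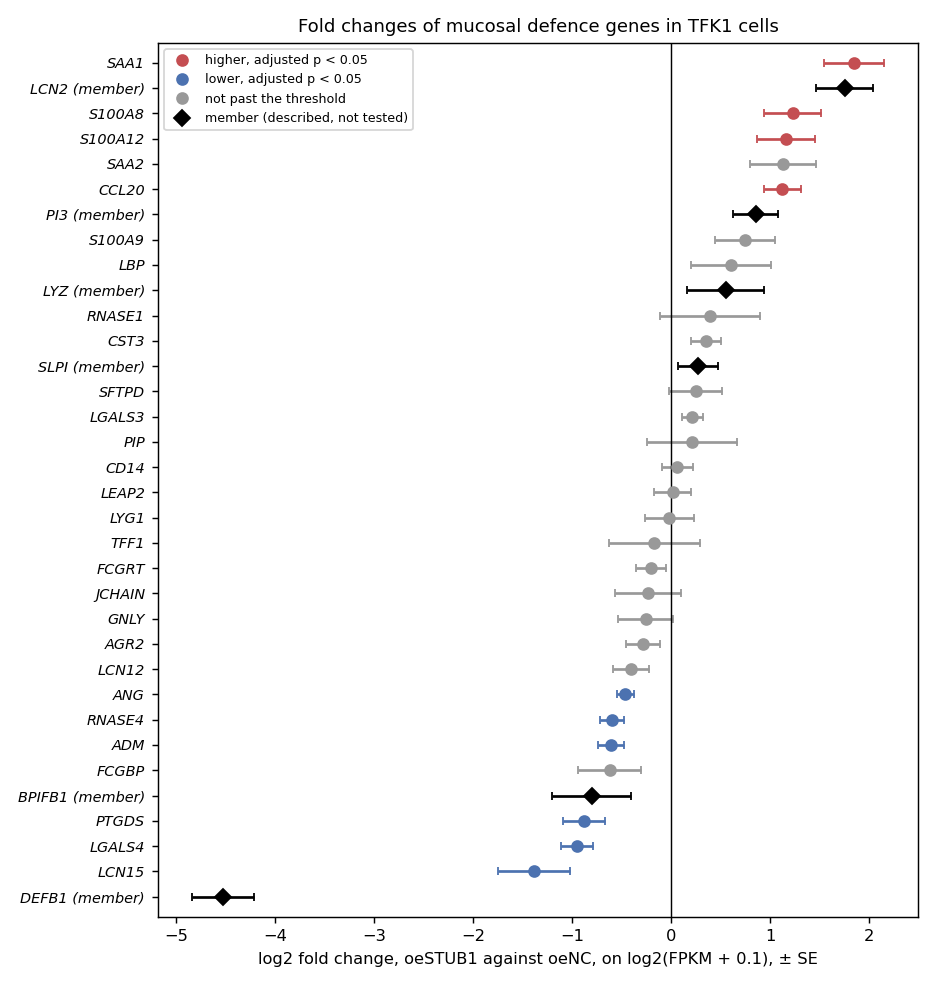
Log2 fold change of oeSTUB1 against oeNC on the log2(FPKM + 0.1) scale (x axis) for the 6 compared genes among the 10 (black diamonds, labelled member, shown as a description) and the 28 tested genes of the wider defence list (circles, coloured where the adjusted p was under 0.05), with whiskers of 1 SE. DEFB1 lies alone at -4.52, and SAA1 (1.84) and LCN2 (1.75) are the highest.

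The 4 higher genes were SAA1, S100A8, S100A12 and CCL20. SAA1, an acute phase protein that epithelia make on stimulation, was at 0.607, 0.477 and 1.15 FPKM in oeNC and 2.14, 2.77 and 3.56 FPKM in oeSTUB1. The groups did not overlap and the log2 fold change was 1.84 ± 0.30 (SE, adjusted p = 0.0068), although SAA1 and its close copy SAA2 may share reads. SAA2 was at 0, 0.0487 and 0.0459 FPKM against 0.245, 0.0892 and 0.247 FPKM (1.13 ± 0.33, adjusted p = 0.064).

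CCL20, a chemokine that also kills bacteria, was at 5.36, 4.91 and 7.28 FPKM in oeNC and 9.92, 14.4 and 14.2 FPKM in oeSTUB1. Each oeSTUB1 library was above all controls, with a log2 fold change of 1.12 ± 0.19 (SE, adjusted p = 0.0078). Its promoter held 3 matches to the NF-kB motif searched above. The promoters of S100A8, another of the 4 higher genes, held 0 matches, and those of NFKBIZ and TNFAIP3 held 1 each. At least 1 match was present in 25.6% of all promoters.

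S100A8, which pairs with S100A9 to form the zinc- and manganese-binding calprotectin, was at 1.35, 1.43 and 2.70 FPKM in oeNC and 5.28, 4.49 and 3.10 FPKM in oeSTUB1. It rose by a log2 fold change of 1.224 ± 0.29 (SE, adjusted p = 0.029), and the call was lost in 6 of 15 settings, among them without oeNC 1, oeNC 2 or oeSTUB1 1. S100A9 was at 6.13, 5.14 and 12.4 FPKM and at 14.99, 10.8 and 11.6 FPKM, with oeNC 3 inside the oeSTUB1 range (0.74 ± 0.30, adjusted p = 0.15). S100A12 had at most 2 fragments in any oeNC library and 5, 7 and 3 in the oeSTUB1 libraries. Against a floor of 3 fragments per library, S100A12 was at least 1.75-fold higher in oeSTUB1 (adjusted p = 0.039). Its call was lost in 9 of 14 settings, among them without any 1 of the oeNC libraries, without oeSTUB1 1 or without oeSTUB1 2. These 3 are abundant in neutrophils and monocytes, and the leukocyte values given with LYZ apply to them, whose part in the result was not tested.

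The 6 lower genes were LCN15, LGALS4, PTGDS, ADM, RNASE4 and ANG. ADM, the adrenomedullin gene, was the most abundant of them, at 54.9, 55.4 and 58.7 FPKM in oeNC and 33.5, 45.9 and 32.4 FPKM in oeSTUB1 (log2 fold change -0.61 ± 0.13, SE, adjusted p = 0.023). RNASE4 and ANG, ribonucleases with antimicrobial activity, fell by 0.60 ± 0.12 and 0.47 ± 0.09 on the log2 scale (SE, adjusted p = 0.016 and 0.012). They share a locus and first exons, so reads cannot be divided between them with certainty.

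LGALS4, a galectin of the gut epithelium, was at 0.707, 0.788 and 0.759 FPKM in oeNC and 0.308, 0.387 and 0.326 FPKM in oeSTUB1 (-0.95 ± 0.16, adjusted p = 0.0082). PTGDS, a lipocalin like LCN2, had a mean of 0.419 FPKM in oeNC and 0.181 FPKM in oeSTUB1 (-0.88 ± 0.21, adjusted p = 0.033). LCN15, a further lipocalin, had at most 1 fragment in any oeSTUB1 library and was, against the same floor, at least 1.83-fold lower (adjusted p = 0.044). Among the lipocalins, LCN2 was higher, PTGDS and LCN15 were lower, LCN12 did not pass (-0.41 ± 0.18, adjusted p = 0.18) and LCN1 had at most 1 fragment. Calls were lost in 5 of 15 settings for ADM, 8 of 14 for PTGDS and 9 of 13 for LCN15, and without oeNC 2 none of the 6 was called.

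A second list held 75 sensors, receptors and transcription factors of mucosal defence, of which 71 were measured and 63 passed the filter. This list too was drawn up with earlier results of these data known, so its counts are a description and no test. Among the 63, 9 were lower and 16 higher, 39.7% in all, beside 6.59% lower, 7.01% higher and 13.6% in all over the genes tested, with a median log2 fold change of 0.05. These counts moved with the libraries, from 5 to 13 lower and from 6 to 20 higher when 1 was left out, with 6 higher without oeNC 1 or oeNC 3 and 20 without oeSTUB1 2. Among the 12 genes of NF-kB and other inducible factors, all tested, 6 were higher (RELB, NFKBIZ, TNFAIP3, CEBPD, STAT3 and HIF1A), none was lower and 6 did not pass, with a median of 0.47, beside 7.01% higher over all genes tested. The call of CEBPD was lost in 7 of 15 settings, among them without any 1 of the oeNC libraries or without oeSTUB1 3, and that of STAT3 in 2, without oeNC 1 or oeNC 3.

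TNFAIP3, which encodes the NF-kB inhibitor A20 and is itself a target of NF-kB, was at 1.07, 1.24 and 1.54 FPKM in oeNC and 3.73, 2.83 and 4.31 FPKM in oeSTUB1 (1.42 ± 0.19, SE, adjusted p = 0.0028). NFKBIZ, a nuclear cofactor of NF-kB needed for the induction of LCN2, was at 1.77, 2.11 and 2.49 FPKM and at 4.34, 4.06 and 4.79 FPKM (1.03 ± 0.14, adjusted p = 0.0033). RELB, an NF-kB subunit, was at 3.60, 4.30 and 4.39 FPKM and at 6.90, 7.77 and 6.29 FPKM (0.76 ± 0.12, adjusted p = 0.0060). None of these 3 genes overlapped between the groups. The subunit gene NFKB1 was at 6.71, 6.204 and 7.22 FPKM in oeNC and 9.36, 7.75 and 10.02 FPKM in oeSTUB1 and did not pass (adjusted p = 0.054), and RELA did not pass either (adjusted p = 0.10). HIF1A, which encodes the oxygen-regulated factor, was at 89.2, 91.5 and 98.5 FPKM against 196, 151 and 208 FPKM (0.98 ± 0.13, adjusted p = 0.0025), and STAT3, which relays IL-22 and IL-6 signals, had a log2 fold change of 0.59 ± 0.11 (adjusted p = 0.012).

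**Figure D4:**
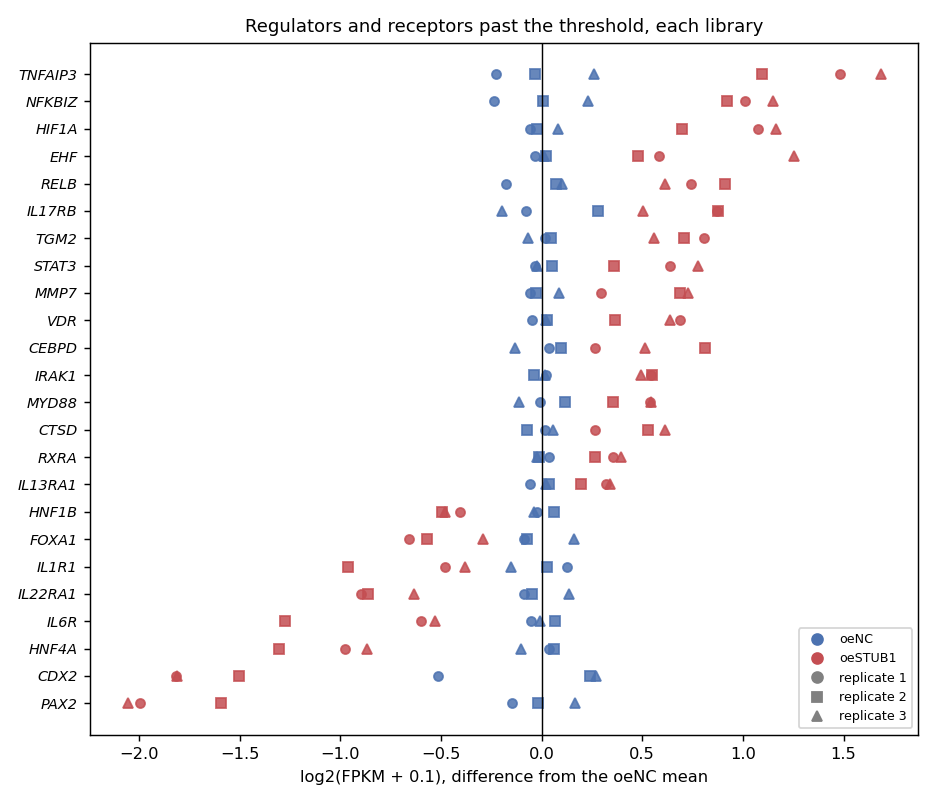
Log2(FPKM + 0.1) in each library, as the difference from the mean of the 3 oeNC libraries (x axis), for 24 of the 25 sensors, receptors and transcription factors with an adjusted p under 0.05, oeNC in blue and oeSTUB1 in red, with marker shape for the replicate number. The 16 higher genes, led by TNFAIP3 and NFKBIZ, lie right of 0 in every oeSTUB1 library and the 8 lower genes shown, led by PAX2 and CDX2, lie left of it.

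Of the 20 epithelial transcription factor genes tested, 6 were lower, 3 were higher and 11 did not pass, with a median of -0.25, beside 6.59% lower and 7.01% higher over all genes tested. PAX2, a factor of kidney and other ducts, was at 0.836, 0.922 and 1.06 FPKM in oeNC and 0.159, 0.243 and 0.149 FPKM in oeSTUB1 (-1.88 ± 0.20, SE, adjusted p = 0.0010). CDX2, a factor of intestinal identity, was at 0.178, 0.370 and 0.379 FPKM and at 0.0128, 0.0400 and 0.0129 FPKM (-1.71 ± 0.29, adjusted p = 0.0082). CDX2 rested on 2, 6 and 2 fragments in oeSTUB1, and its log2 fold change ran from -0.35 with a pseudocount of 1 to -3.73 with limma-voom on recovered fragments, called in both. The liver and bile duct factor HNF4A was at 11.1, 11.3 and 10.1 FPKM against 5.44, 4.30 and 5.87 FPKM (-1.05 ± 0.13, adjusted p = 0.0018).

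All oeSTUB1 libraries were below all oeNC libraries for these 3 genes. EHF, an ETS factor of secretory epithelia, went the other way (0.77 ± 0.21, adjusted p = 0.046), with a call lost in 10 of 15 settings. Of the 12 cytokine receptor genes, 3 were lower, 2 were higher and 7 did not pass, against the same 6.59% and 7.01%. IL22RA1, the receptor subunit through which IL-22 acts on epithelia, was at 2.45, 2.53 and 2.89 FPKM in oeNC and 1.36, 1.39 and 1.65 FPKM in oeSTUB1 (-0.80 ± 0.13, adjusted p = 0.0065). IL6R (-0.80 ± 0.20, adjusted p = 0.036) and IL1R1 (-0.61 ± 0.16, adjusted p = 0.043) were also lower, and IL17RB was higher (0.75 ± 0.18, adjusted p = 0.033). The calls of IL6R and IL1R1 were each lost in 7 of 15 settings, among them without any 1 of the oeNC libraries, without oeSTUB1 1 and with a replicate block (adjusted p = 0.053 and 0.059), and that of IL17RB in 4, among them without oeNC 1, oeNC 3 or oeSTUB1 1. Among genes of processing and target proteins, TGM2, a transglutaminase that cross-links extracellular proteins, elafin among them, was higher (0.69 ± 0.09, adjusted p = 0.0023).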

How the data were processed

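RNA-seq was compared between 3 oeNC and 3 oeSTUB1 libraries of TFK1 cells, grouped by the sample labels. Total RNA was extracted with TRIzol and libraries were made with the VAHTS Universal V6 kit. The authors deposited FPKM values per gene symbol, 1 column per library. The submitters' processing notes name fastp 0.20.1, HISAT2 2.1.0, HTSeq 0.11.2, DESeq2 1.22.2 and GRCh38.p13, and the strand setting of counting is not given in the sources used here, so overlapping genes cannot be separated with certainty. Fragments were recovered from the steps between FPKM values (23569 genes, largest difference 4.9e-06) and may be a divisor of the true numbers. Totals were 33106564 to 36744521. Replicates differed by more than sampling noise.

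Genes whose FPKM averaged 0.1 or more were compared with limma 3.58.1 in R 4.3.3 (eBayes with trend, two-sided) on log2(FPKM + 0.1), with Benjamini-Hochberg adjustment over 15353 genes and a threshold of 0.05. The code was tested on simulated data. Genes, gene lists and rules were chosen with earlier results of these data known. Named were the 10 genes, called genes of the defence list and up to 15 called regulators by size of change. Named too were the 5 genes most like DEFB1 and the nearest measured genes on either side of DEFB1 and LCN2. Genes named besides these (NFKB1, RELA, S100A9, SAA2, CST3, LTF, LCN12, LCN1 and the markers) were chosen after their values were seen. A called regulator that is counted but not named is not reported here. The 15 alternatives changed the pseudocount, filter, scaling, trend, model or libraries. Gene positions are from GENCODE 29 and promoters from RefSeq.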

Additional observations from a re-analysis of the deposited data

How the results depend on the processing

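Among 604 values recomputed for 41 genes, 465 kept their direction and their side of the threshold, 138 kept their direction but lost the call, 1 (SLPI without oeSTUB1 replicate 1, 0.52) gained a call and none changed direction. Settings that changed only the filter, the trend or the replicate block left the log2 fold change as it was, so direction could not change there. Most of the 41 genes were named because they were called in the main fit, so this tally is a description. DEFB1, LCN2, SAA1, CCL20, TNFAIP3, NFKBIZ, RELB and HNF4A were called in all 15 settings. The settings refit the same libraries, and DEFB1 and LCN2 were chosen by their values in this contrast. For DEFB1 and LCN2 the kept calls are therefore a description and no test. Leaving out 1 library moved the genes called lower between 453 and 1845 and those called higher between 474 and 2273, with the lowest counts (453 to 473 lower, 474 to 563 higher) without an oeNC library, 688 higher without oeSTUB1 1, and the highest without oeSTUB1 2. The 10 genes then gave 1 to 2 called higher, the wider defence list 0 to 6 lower and 2 to 4 higher, and the regulators 5 to 13 lower and 6 to 20 higher. The log2 fold change of STUB1 stayed between 0.93 and 1.08.

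PI3 lost its call, leaving 1 of the 10 genes higher, with eBayes without a trend (1), limma-voom on recovered fragments (1), median-ratio scaling (1), no filter (1) and a pseudocount of 1 (1). In the wider defence list, 3 were lower with a filter at a mean FPKM of 1, where fewer genes are tested, and 2 were higher with no filter. Where unstated, the cause was not tested. Median-ratio scaling gave 1145 lower and 896 higher genes.

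Same-numbered libraries did not deviate together (correlations of -0.049, -0.052 and 0.062), so the numbers were not taken as pairs. With a replicate block, 747 genes were lower and 741 higher, 2 genes of the wider defence list and 10 regulators were higher, and DEFB1, LCN2 and PI3 kept their calls. Depth limits CAMP, PIGR, WFDC2 and BPIFB1, which had at most 16 fragments in a library.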
